A study of Homo sapiens with 18 samples.

Results

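The genes described here are 41 genes of DNA replication and the entry into S phase, picked by their symbols in the deposited table, which lists 21944 genes. All 41 were found, each listed at 3, 6 and 24 h. Poly(A) RNA was measured by bulk sequencing in human embryonic stem cell-derived pancreatic progenitors, which can form endocrine and duct cells. They had been differentiated to day 19, detached with accutase and reseeded on fibronectin (FN), a widespread matrix protein, or on laminin-411 (LN411), a laminin isoform. Both matrices were sampled at 3, 6 and 24 h from reseeding, which gives 6 groups of 3 samples and 18 samples in all. The labels name the cell line as HUES4, whereas their growth protocol names SA121-derived NGN3-GFP cells, a reporter line for the endocrine factor NEUROG3, and the paper's text also describes the sequenced cells as NGN3-GFP-derived. No genotype, drug or donor set the groups apart, and detachment and reseeding were shared by all of them.

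For each gene the table holds a mean normalized count, which is the authors' mean over their libraries after scaling for library size and is named the level below. This mean was the same at the 3 times to within a relative difference of 4.89e-07, so it comes from 1 common set of libraries and does not distinguish FN from LN411 or one time from another. The sources used here do not state which libraries entered the mean. The table also holds the authors' own estimates of the difference between LN411 and FN at each time, which were not used, and that difference was not analysed here. The mean has no replicate error, and the depth of single libraries is unknown, so no test was possible and the order of genes close to each other in level is uncertain. In a bulk mean, fewer cycling cells and less RNA per cycling cell cannot be told apart.

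DNA replication starts at origins, which the origin recognition complex binds and on which CDC6 and CDT1 load the MCM2 to MCM7 ring, the core of the helicase, while cells are in G1. In S phase, CDC45 and the GINS complex activate this ring, DNA polymerase alpha with primase starts each strand, and polymerases delta and epsilon extend the strands on the sliding clamp PCNA. Many genes of this machinery are transcribed in late G1 by E2F transcription factors, which are held back by RB family proteins until cyclin-dependent kinases phosphorylate them, and pancreatic progenitors are known as a proliferating population that leaves the cell cycle as it turns endocrine.

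The sequences that E2F factors recognise were present in the promoters of many of these genes. Promoters here are the 250 bases before and 50 bases after a transcription start in RefSeq on GRCh38.p14, and the promoter nearest to the start of the canonical GENCODE transcript was taken for each gene. Of the 41 genes, 35 have a promoter in the table used (the others are MCM4, MCM5, GINS4, RPA2, RPA3 and CCNE2). The 4 E2F motifs searched on both strands were TTTCCCGC, TTTCGCGC, TTTGCCGC and TTTGGCGC, which can overlap each other on opposite strands. The promoters below show how these matches sit in genes of different roles. Each is written 5′ to 3′ on the strand of the gene, ends before the transcription start and has the match on either strand in capitals.

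MCM7 (chr7:100101398-100101609, minus strand, bases -212 to -1 from the start): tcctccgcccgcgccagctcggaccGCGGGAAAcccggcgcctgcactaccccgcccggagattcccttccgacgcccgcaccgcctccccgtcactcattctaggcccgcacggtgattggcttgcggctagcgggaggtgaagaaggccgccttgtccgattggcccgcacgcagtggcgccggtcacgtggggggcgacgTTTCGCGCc
MCM6 (chr2:135876497-135876620, minus strand, bases -177 to -54): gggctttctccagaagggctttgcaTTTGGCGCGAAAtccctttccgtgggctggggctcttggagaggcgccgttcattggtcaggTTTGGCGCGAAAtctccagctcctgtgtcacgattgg
CDT1 (chr16:88803729-88803786, plus strand, bases -60 to -3): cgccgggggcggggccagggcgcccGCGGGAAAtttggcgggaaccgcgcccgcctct
GINS2 (chr16:85688955-85689010, minus strand, bases -56 to -1): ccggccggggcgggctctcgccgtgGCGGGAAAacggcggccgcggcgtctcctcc
RFC3 (chr13:33818069-33818126, plus strand, bases -80 to -23): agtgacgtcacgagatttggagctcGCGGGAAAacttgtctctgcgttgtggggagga
POLE (chr12:132687343-132687385, minus strand, bases -43 to -1): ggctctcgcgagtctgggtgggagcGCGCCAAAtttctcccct
LIG1 (chr19:48170426-48170483, minus strand, bases -139 to -82): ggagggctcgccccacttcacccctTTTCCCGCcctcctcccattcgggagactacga
TYMS (chr18:657589-657646, plus strand, bases -64 to -7): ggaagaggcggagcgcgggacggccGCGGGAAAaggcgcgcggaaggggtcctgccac
E2F1 (chr20:33686386-33686443, minus strand, bases -58 to -1): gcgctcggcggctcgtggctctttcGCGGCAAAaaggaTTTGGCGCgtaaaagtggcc

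From each role, the gene with the highest level per kilobase among those with a match wholly before the start is shown. MCM6 was added after its matches were seen, because its promoter alone held 4. They form 2 copies of the same block, in each of which TTTGGCGC on the strand of the gene shares bases with TTTCGCGC on the opposite strand. MCM7 held a match at each end of its window, and E2F1, itself an E2F factor, held 2 matches close together. CDT1, GINS2, RFC3, TYMS and the upstream match of MCM7 shared the same 8 bases, GCGGGAAA, which is TTTCCCGC read on the opposite strand. The promoters of GINS3 and UHRF1, not printed here, held the same match.

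An E2F motif was present in 18 of the 35 promoters, or 51.4% (95% exact binomial interval 33.99% to 68.6%, which covers counting error only). By comparison, 3.31% of all 35116 promoters of the same length held one, as did 4.89% of the 13198 promoters of genes listed in the table. The genes were picked by name and function, so this comparison carries no test. The helicase genes had the densest pattern, with a match in MCM2, MCM3, MCM6 and MCM7, all 4 of that group with a promoter. Matches were also found in 4 of 6 polymerase and primase genes (POLA1, POLA2, POLE and POLE2) and in 3 of 5 helicase activation genes (GINS1, GINS2 and GINS3). Of the 5 licensing genes, CDC6 and CDT1 held a match. RFC3 was the single gene of 6 in the clamp and clamp loader group with a match, LIG1 was 1 of 2 in Okazaki fragment maturation, and TYMS was 1 of 3 in deoxynucleotide supply. E2F1 and UHRF1 held a match in the group of G1/S control, where CCNE1 did not.

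No match was found in the other 17 promoters, those of ORC1, ORC6, GMNN, MCM10, CDC45, PCNA, RFC1, RFC2, RFC4, RFC5, PRIM1, POLD1, RPA1, FEN1, RRM1, RRM2 and CCNE1, which says only that these letters are not in the windows searched. When any promoter of a gene was allowed, a choice made after the data were examined, PCNA and GMNN gained a match and the share rose to 20 of 35 (57.1%), against 3.99% of all genes. The 25 matches started at a median of 33 bases before the transcription start (position -33), between -187 and 8. Of these, 13 began within 60 bases before the start, 8 lay further upstream and 4 began after it, in MCM2, CDC6 and GINS1.

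**Figure D1:**
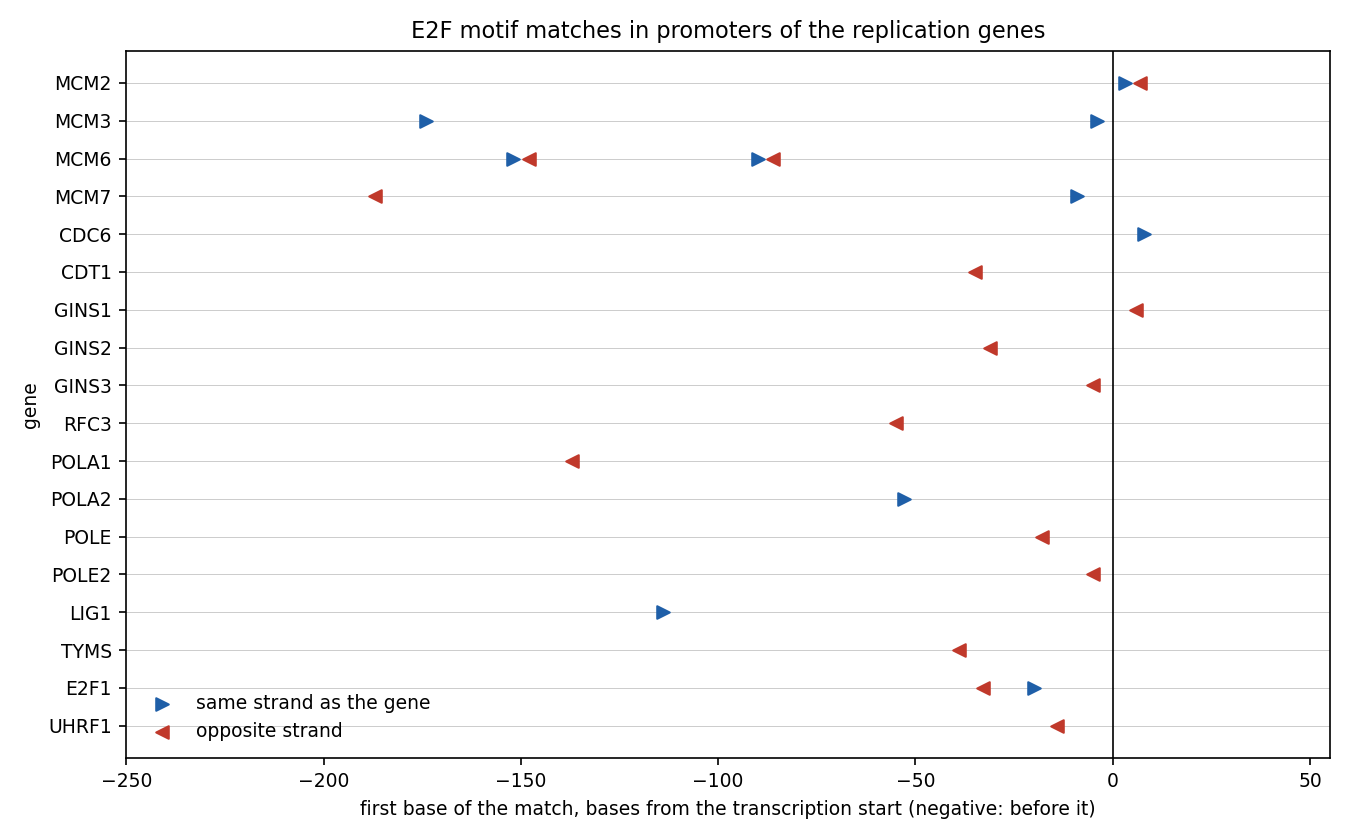
Position of each of the 25 E2F motif matches in the 18 promoters that hold one; the x axis gives the first base of the match in bases from the transcription start (negative before it) and each row is a gene. Triangles pointing right are matches on the strand of the gene and triangles pointing left are on the opposite strand, and 13 of the matches begin within 60 bases before the start.

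The motifs of the replication promoters were compared with those of genes that act later in the cycle. In a list of 40 mitosis and G2/M genes, 31 had a promoter and 3 of these (9.68%) held an E2F motif, while 25 (80.6%) held TTTGAA, the core of the cell cycle homology region through which genes of G2 and mitosis are known to be regulated. Among the replication genes, TTTGAA was found in 1 of 35 promoters (2.86%), that of RRM1, against 15.2% of all promoters and 9.65% of those of all listed genes. CCAAT, the site of the factor NF-Y, was present in 60% of the replication promoters and in 83.9% of the mitosis promoters, against 34.6% of all promoters and 36.04% of those of listed genes. GGGCGG, a GC box, occurred in 74.3% of the replication promoters, against 45.0% of all promoters and 68.6% of those of listed genes. The TATA motif TATAAA was found in 1 replication promoter (2.86%), that of GINS3, against 11.5% of all promoters and 6.52% of those of listed genes. The exact 95% interval of the replication share for TTTGAA and for TATAAA was 0.0723% to 14.9%, which includes both listed-gene shares. These promoters had a median GC content of 66% and a median CpG observed over expected ratio of 0.943, against 58.7% and 0.579 in all promoters and 65.3% and 0.824 in those of listed genes.

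**Figure D2:**
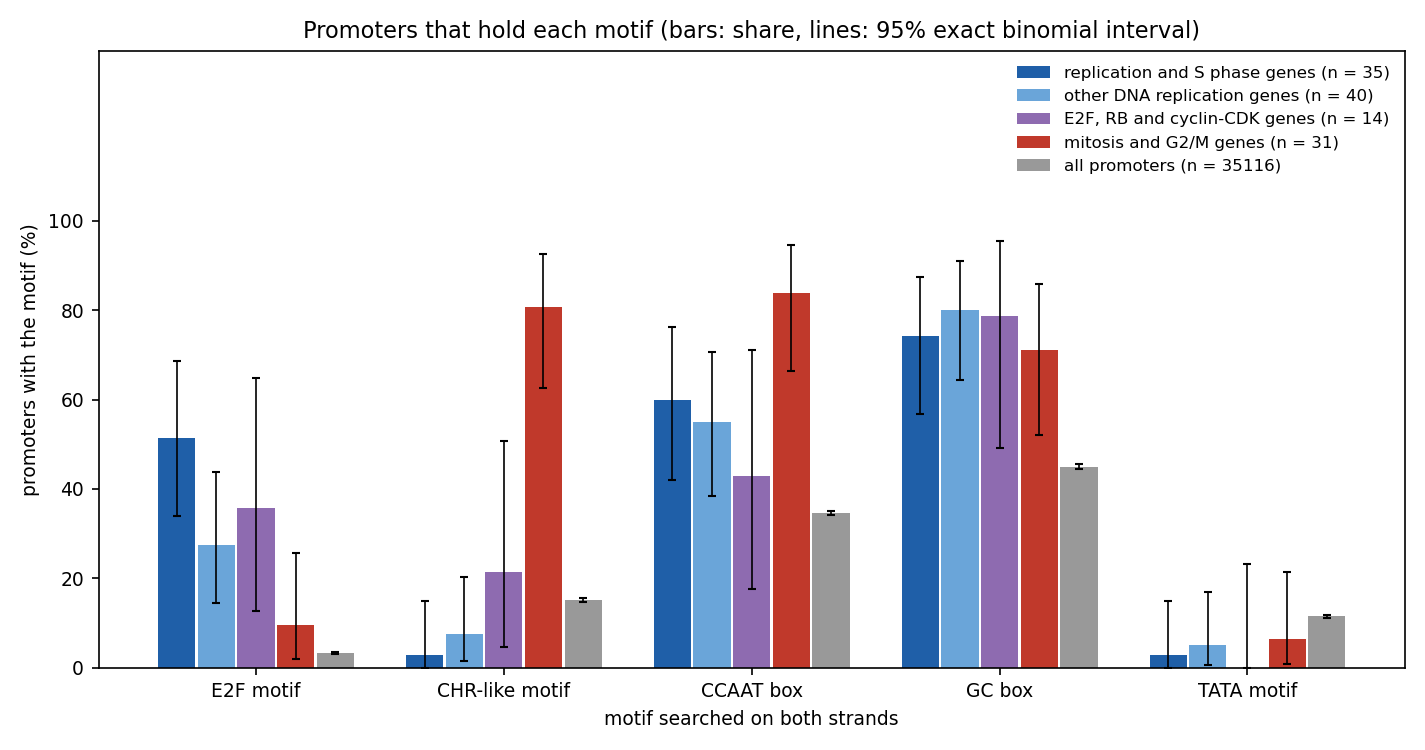
Share of promoters in percent (y axis) that hold each of 5 motifs on either strand (x axis; the CHR-like motif is TTTGAA, the core of the cell cycle homology region) in 5 gene groups; bars are shares and lines are 95% exact binomial intervals. The E2F motif is most frequent in the replication and S phase genes (51.4%) and TTTGAA in the mitosis and G2/M genes (80.6%). For the E2F motif, the interval of the replication and S phase genes overlaps those of 2 other groups. These are the E2F, RB and cyclin-CDK genes (35.7%) and the other DNA replication genes (27.5%).

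The replication genes were expressed at a middle to high level in these cells. Their median level was 1280.2, with quartiles of 750.7 and 3107, against a median of 297.1 over all genes listed and of 1077 over the 15355 protein-coding genes listed. 37 of the 41 lay above the median of all genes and 16 above its upper quartile of 2071. The median percentile among all genes was 67.3, but it was 53.6 among protein-coding genes alone, since protein-coding genes in general have higher levels than the rest of the table. By this level, which is not corrected for length, GMNN, MCM7, PCNA, MCM4 and MCM3 stood in the top 10 percent of all genes. POLA2, CCNE2, POLE2 and PRIM1 fell below percentile 50. The 41 genes, out of 21944 listed, together held 0.174% of the summed level of all genes.

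**Figure D3:**
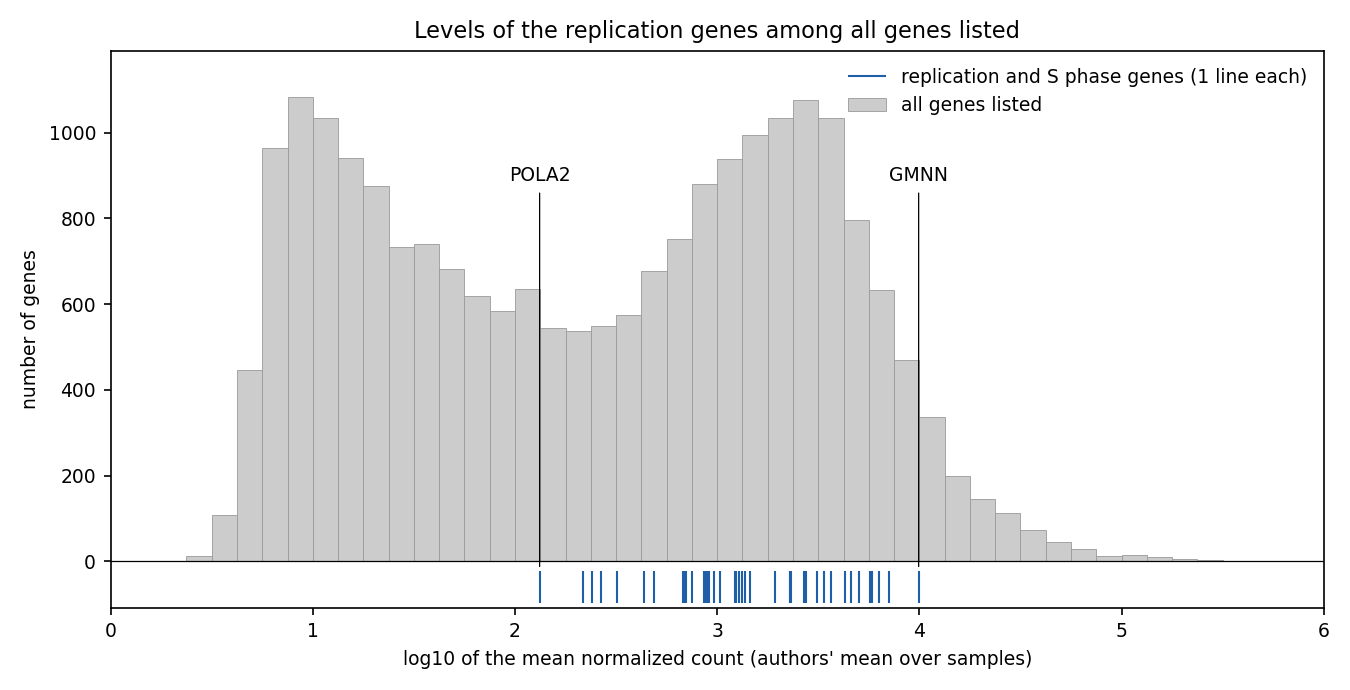
Histogram of the levels of all 21944 genes listed (grey bars, number of genes on the y axis, log10 of the mean normalized count on the x axis), with each of the 41 replication genes as a blue line below it. The replication genes run from POLA2 at 132.3 to GMNN at 9917 and are absent from the low peak of the histogram.

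The cell type on the labels was checked against its markers. Pancreatic progenitor genes were high, with levels of 12933 for PDX1, 20672 for SOX9, 3040 for NKX6-1 and 135959 for GP2, although PTF1A stood at 12.5. Of 10 endocrine genes, CHGA was highest at 4312, and INSM1 and NEUROG3 stood at 565.5 and 450.8. Of the hormone genes, SST stood at 581.3, INS at 8.32 and GCG at 16.3. The pluripotency genes POU5F1 and NANOG and the blood marker PTPRC were not listed, and of the other pluripotency genes LIN28A stood at 10333, DPPA4 at 374.3 and SOX2 at 9.44. The mesenchymal genes COL1A1, COL3A1 and PDGFRB stood at 4091, 320.1 and 113.8, and the endothelial genes PECAM1 and CDH5 at 75.04 and 5.12. Whether RNA of other cell types has a part in the levels of the replication genes was not tested.

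Genes are compared with each other below per kilobase of the canonical transcript, since longer transcripts yield more reads, and the level itself is given in brackets. On this scale the 41 genes had a median of 537.3, against 115.5 for all genes and 309.9 for protein-coding genes, and they spanned 37.3 (POLA2) to 7852 (GMNN). The roles differed in their medians, with 1165 for the MCM helicase, 1042.5 for RPA, 969.7 for the clamp and its loader and 953.8 for deoxynucleotide supply at the top. The medians of the helicase activation genes (211.1), the polymerase and primase genes (214.7) and the G1/S control genes (267.6) were lowest. No error belongs to these medians, which rest on 2 to 6 genes each.

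**Figure D4:**
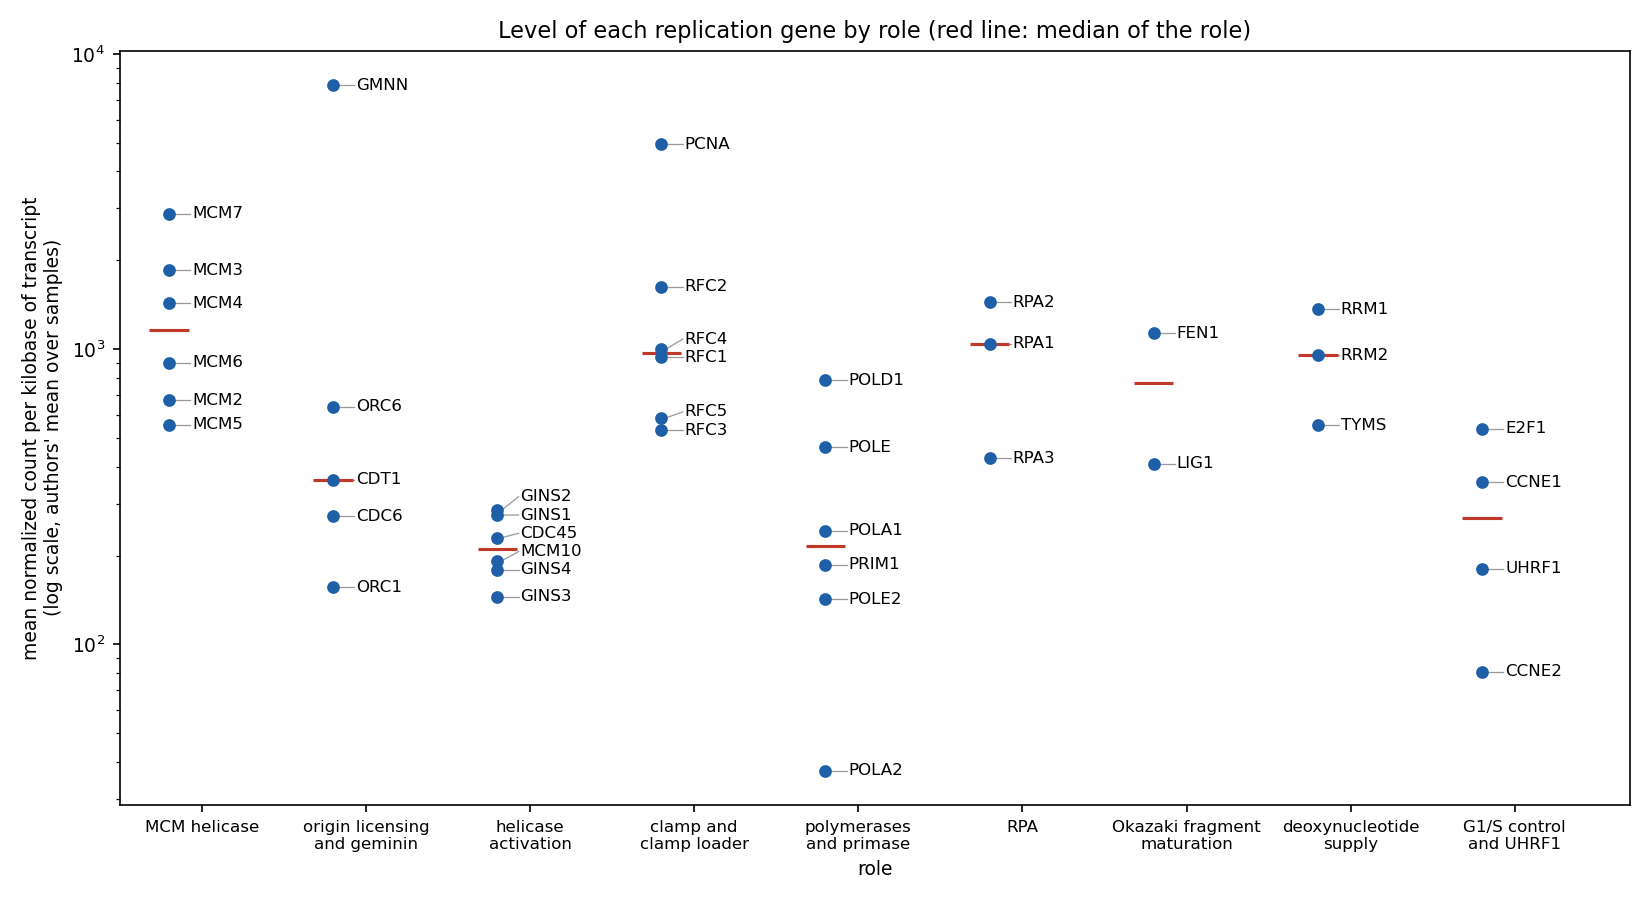
Level per kilobase of canonical transcript of each of the 41 genes (y axis, log scale, authors' mean) grouped by role (x axis); points are genes and red lines are the medians of the roles. The helicase activation genes lie close together between 145.2 and 285.7, whereas licensing spans 156.3 to 7852 and the polymerases 37.3 to 785.9.

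The MCM2 to MCM7 proteins form a ring with 1 copy of each, yet their transcripts differed in level. MCM7 was the most abundant per kilobase at 2882 (level 7109), followed by MCM3 at 1849 (level 5673) and MCM4 at 1430.4 (level 5810.45). MCM6 stood at 899.6 (level 3376) and MCM2 at 672.7 (level 2310.1). MCM5 was lowest at 555.6 (level 1921), so that the highest subunit exceeded the lowest by a ratio of 5.19. With all exons combined, MCM3 was highest at 1556, above MCM7 at 1433. Among all genes ranked per kilobase, MCM5 stood at percentile 73.5 and the other subunits at 77.0 or above. MCM2 shares 23.6% of its exon length with a gene annotated on the other strand, and MCM7 hosts the microRNA MIR93 and overlaps AP4M1, with 8.49% of its exon length shared in all. Whether the authors counted reads by strand is not given in the sources used here, and the part of these overlaps in the levels was not tested.

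Among the licensing genes, GMNN stood apart. It encodes geminin, the inhibitor that binds CDT1 in S and G2 phase and keeps origins from being licensed again. Located at chr6:24774931-24786099 on the plus strand, it had the highest level per kilobase of all 41 genes, 7852 (level 9917), at percentile 98.3 of all genes ranked per kilobase. CDT1, the loader it inhibits, had a level of 962.3 and stood at 361.2 per kilobase, which made the ratio of GMNN to CDT1 transcripts 21.7 (11.5 with the length of all exons combined). CDC6, the ATPase that works with CDT1, stood at 271.2 per kilobase (level 1238). Of the recognition complex, ORC6, its smallest subunit, stood at 639.3 per kilobase (level 1033) and ORC1, its largest subunit, at 156.3 (level 487.9). The ratio of 4.09 between them fell to 1.53 with the length of all exons combined.

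The genes that turn the loaded ring into an active helicase were low and even. CDC45, the partner of the ring at the fork, stood at 230.0 per kilobase (level 432.1) and MCM10, which is needed for origin firing, at 192.3 (level 874.9). The GINS subunits ranged from 145.2 (GINS3, level 319.5) through 178.8 (GINS4, level 674.0) and 274.2 (GINS1, level 907.7) to 285.7 (GINS2, level 750.7). Their highest to lowest ratio was 1.97, the smallest of the 4 complexes compared with the canonical length, but it was 2.86 with the longest transcript and 3.73 with all exons combined, so this evenness depended on the length used. MCM7 exceeded CDC45 by a ratio of 12.5 and MCM10 by 14.98 per kilobase. GINS3 and GINS4 share 10.9% and 23.4% of their exon length with genes on the other strand.

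The transcript of the sliding clamp exceeded those of its loader. PCNA, which forms a homotrimer around DNA and tethers the polymerases, stood at 4949 per kilobase (level 6315), the second highest of the 41 genes. GMNN exceeded it by a ratio of 1.59, but fell below it, with a ratio of 0.89, when the length of all exons was used. The loader's large subunit RFC1 stood at 937.6 per kilobase (level 4566), giving a ratio of PCNA to RFC1 of 5.28. Of the small loader subunits, RFC2 was highest at 1627 (level 2741) and RFC4 next at 1002 (level 1367). RFC5 stood at 585.8 (level 1233) and RFC3 at 531.4 (level 1225), so that RFC2 exceeded the lowest by a ratio of 3.06. RFC3 and RFC5 differed little and changed places under both other lengths.

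In polymerases alpha and epsilon the catalytic subunit exceeded the second subunit. POLD1, the catalytic subunit of the lagging strand polymerase delta, was highest of these genes at 785.9 per kilobase (level 2700.4), below its second subunit POLD2, a gene outside the 41, at 2255. POLE, the catalytic subunit of the leading strand polymerase epsilon, stood at 465.0 (level 3637) and its second subunit POLE2 at 142.0 (level 240.3), a ratio of 3.27. Its further subunits POLE3 and POLE4, genes outside the 41, stood above POLE at 1284 and 1088. POLA1, the catalytic subunit of polymerase alpha, stood at 243.0 (level 1333) and its accessory subunit POLA2 at 37.3 (level 132.3), a ratio of 6.51. PRIM1, the primase subunit that makes the RNA primer, stood at 186.3 (level 265.2), a ratio of 1.30 below POLA1. That ratio was 1.64 with the longest transcript and 1.07 with all exons combined. The other primase subunit PRIM2, a gene outside the 41, stood above POLA1 at 294.2.

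POLA2 was the lowest of all 41 genes per kilobase, at percentile 35.9 of all genes ranked on that scale. It lies at chr11:65261913-65305959 on the plus strand (GENCODE v44), and 21.3% of its exon length is shared with other annotated genes (16.8% of the exon length with a gene on the same strand). PRIM1 shares 19.1% in all and 15.1% on the same strand. They are the 2 genes of the 41 with a shared part of 10% or more on their own strand, where a read that falls in both genes is assigned to neither by gene counting as STAR does it. The authors used an older annotation, version 32, in which the overlaps may differ, and their part in these low levels was not tested.

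Among the single strand and Okazaki fragment genes, levels were mostly high. RPA, the heterotrimer that coats single-stranded DNA, had RPA2 at 1442 per kilobase (level 2283), RPA1 at 1042.5 (level 5053) and RPA3 at 427.0 (level 862.5). The ratio of RPA2 to RPA3 was 3.38. FEN1, the nuclease that trims the flap of each fragment, stood at 1131 per kilobase (level 2279.8). LIG1, the ligase that seals the nick, stood at 409.7 (level 1280.2). The ratio of FEN1 to LIG1 was 2.76 and rose to 9.19 with all exons combined, where the length of LIG1 is 11348 bases in place of the 3125 of its canonical transcript.

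**Figure D5:**
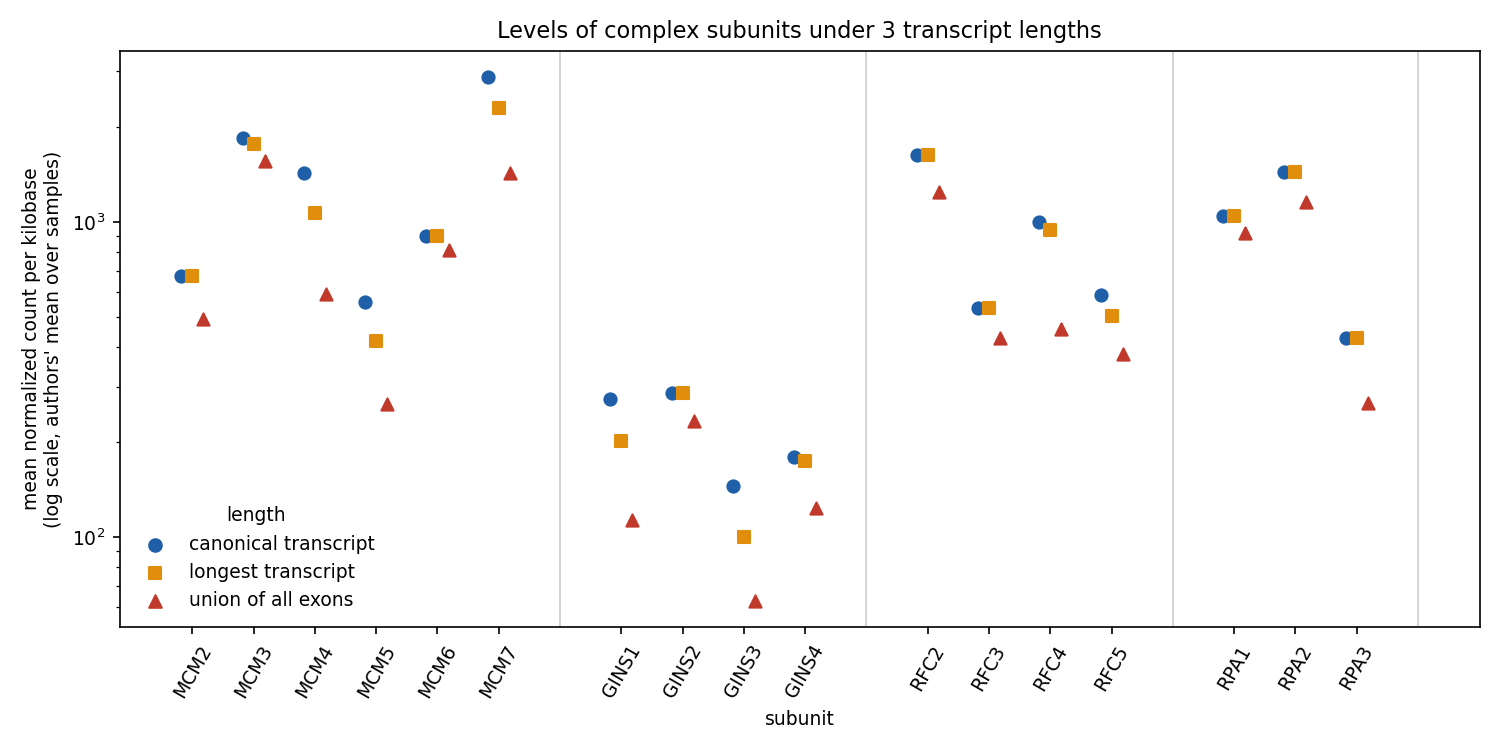
Level per kilobase (y axis, log scale, authors' mean) of the subunits of 4 complexes (x axis), with the length of the canonical transcript (circles), the longest transcript (squares) or all exons combined (triangles). The ratio of the highest to the lowest MCM subunit stays between 5.19 and 5.89, whereas that of the GINS subunits runs from 1.97 to 3.73. The highest MCM subunit is MCM7 with the canonical and longest transcripts and MCM3 with all exons combined.

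Of the genes that supply deoxynucleotides, RRM1 and RRM2 were high as well, while TYMS lay near the median of the 41 genes (537.3). RRM1, the large subunit of ribonucleotide reductase, stood at 1363 per kilobase (level 4284). RRM2, the small subunit whose level is known to follow S phase, stood at 953.8 (level 3107). The ratio of RRM1 to RRM2 was 1.43, or 2.98 with all exons combined. TYMS, which makes thymidylate, stood at 551.8 (level 890.0). TYMS shares 47.9% of its exon length with ENOSF1 and TYMSOS on the other strand, the largest shared part of the 41 genes. RRM2P3, a processed pseudogene of RRM2, was listed at a level of 12.4, and it was the single one listed of 17 pseudogenes named after these genes. How reads were split between genes and their pseudogenes is not known from the sources used here.

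Of the regulators, E2F1 was at the median of the 41 genes with 537.3 per kilobase (level 1445). CCNE1 stood at 354.9 (level 693.5) and CCNE2 at 80.8 (level 215.9), so cyclin E transcripts were weighted to CCNE1 by a ratio of 4.39. CCNE2 shares 37.1% of its exon length with INTS8 and another gene on the other strand. UHRF1, which reads hemimethylated DNA behind the fork and helps to keep DNA methylation, stood at 180.2 (level 702.6).

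The 18 genes with an E2F match in their promoter had a median of 385.5 per kilobase (37.3 to 2882), against 937.6 (156.3 to 7852) for the 17 genes without a match, a description with no test. The highest genes without a match, GMNN at 7852 and PCNA at 4949, held one when any promoter of the gene was allowed.

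The other genes of replication had levels near those of the 41. In a list of 48 such genes, all of them listed, the median was 474.4 per kilobase, and 11 of the 40 with a promoter (27.5%) held an E2F motif. Highest were TOP1, which relieves supercoils, at 2961, POLD2 at 2255 and SLBP, which binds histone mRNA, at 1887. Lowest were RNASEH2A, the catalytic subunit of RNase H2, at 20.7, TICRR, which is needed for origin firing, at 77.3 and POLD4, the smallest subunit of polymerase delta, at 87.1. RNASEH2A shares 53.3% of its exon length with THSD8, and POLD4 shares 21.3% with another gene.

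Of 17 genes of the E2F and RB network and its kinases, all listed, the median was 465.1 per kilobase, and 5 of 14 promoters (35.7%) held an E2F motif. E2F4, an E2F factor that acts mainly as a repressor, was highest at 1751, followed by TFDP1, the dimer partner of E2F factors, at 1615 and CDK2, the kinase of cyclin E, at 1161. E2F2 was lowest at 2.64, below E2F8 at 56.3 and E2F7 at 78.7, both of which are known as repressors. E2F1, at 537.3, thus lay between these groups.

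The 40 mitosis and G2/M genes, all listed, had a median of 360.4 per kilobase. CKS2, a subunit of mitotic kinases, was highest at 4895, WEE1, which restrains CDK1, stood at 1995, and PTTG1, the securin that guards sister chromatids, at 1951. NUSAP1 (8.66), PRC1 (12.6) and ESPL1 (72.3) were lowest. NUSAP1 shares 86.8% and PRC1 61.9% of its exon length with other annotated genes, and the part of these overlaps in the low values was not tested.

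In the genome the 41 genes are spread over 19 chromosomes, with at most 4 on 1 chromosome. Their canonical transcripts had a median length of 2690 bases and 12 exons, against 3321 bases and 9 exons for protein-coding genes listed. 9 of the 41 (22.0%) start within 1000 bases of a protein-coding neighbour that is transcribed in the opposite direction, as do 11.4% of the protein-coding genes listed. MCM7 and AP4M1, an adaptor complex subunit, start 246 bases apart, and MCM7 exceeded its neighbour per kilobase with 2882 against 220.3. RPA1 also exceeded SMYD4, which starts 103 bases away, with 1042.5 against 235.6. The order was the reverse for ORC1, which stood at 156.3 against 646.8 for PRPF38A at 179 bases, and for CDC45, at 230.0 against 1630.15 for UFD1 at 727 bases. FEN1, at 1131, lay below TMEM258, at 8632, which starts 312 bases away. MCM4 and PRKDC, the catalytic subunit of the DNA-dependent protein kinase, start 805 bases apart and stood at 1430.4 and 1478. The level of a gene's neighbour therefore did not follow 1 direction in these pairs.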

How the data were processed

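RNA was prepared from 18 samples (6 groups of 3) with a poly(A) selection and an NEBNext Ultra II kit. Per the study's methods and the submitters' processing notes, the authors aligned reads with STAR 2.7.2d to GRCh38 (hg38) with GENCODE v32, counted reads per gene with STAR and ran DESeq2 1.34.0. The deposited signal used here is the mean normalized count of each gene, averaged by the authors. The remaining columns hold the authors' log2 fold changes, standard errors, statistics and p-values for LN411 against FN, and were not used.

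Lengths, exons and overlaps came from GENCODE v44 (GRCh38), which matched 21861 of the 21944 genes, and levels were divided by transcript length. Promoters (35116) were from RefSeq on GRCh38.p14. Python 3.11.15, pandas 2.3.3, numpy 2.4.6 and scipy 1.17.1 were used. No statistical test was run, since no replicate values were used.

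The genes and lists were chosen with earlier results of these data known. All 41 genes are named, and of each other list the 3 highest and 3 lowest per kilobase. Alternatives were other transcript lengths, gene sets and motif rules, and genes without overlaps.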

Additional observations from a re-analysis of the deposited data

How the results depend on the processing

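Of 28 alternatives to 11 values, 21 were counted as moved and 7 as the same. Among the 7, the rows of each time alone could not differ, since the level is the same at every time. The highest value per kilobase and the RPA1-3 ratio kept the same lengths under the longest transcript. The E2F share did change, from 51.4% to 37.1% with the bases before the start alone and to 57.1% with any promoter. Both shares lie within the interval of 33.99% to 68.6% and were counted as the same. That interval covers counting error only. Since the shares come from the same promoters, it does not measure the change between them. The median level was 1280.2 with the rows of each time alone and 1445 without the 8 genes that share 10% or more of their exon length with another gene. With the longest transcript, the median per kilobase was 503.3 and the lowest value 34.2. With all exons combined, these were 339.5 and 11.02, and the highest value was 4501, then PCNA. The median percentile was 61.5 among genes listed at all 3 times, 53.6 among protein-coding genes, 62.8 among genes with a level of at least 10, and 72.8 per kilobase. With the longest transcript and with all exons combined, the highest to lowest ratio was 5.52 and 5.89 for MCM2-7, 2.86 and 3.73 for GINS1-4, and 3.23 and 3.27 for RFC2-5, and it was 4.32 for RPA1-3 with all exons combined. The share of promoters with an E2F motif was 37.1% in the 250 bases before the start (2.79% of all promoters, 4.12% of those of listed genes). It was 22.9% on the strand of the gene alone (1.80% of all promoters, 2.83% of those of listed genes). With TTTCGCGC and TTTGGCGC alone it was 31.4% (1.15% of all promoters, 1.79% of those of listed genes). The median of the other replication genes was 425.3 with the longest transcript and 289.96 with all exons combined. The order of the 41 genes changed little, with a rank correlation of 0.992 to the longest transcript and 0.942 to all exons combined, which share the levels.

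No paired analysis was possible because the result comes from no test and the values used carry no replicate numbers. Leaving out single replicates could not be done for the same reason. The search for protein motifs was not run. Depth limits cannot be given, since the level is a mean over libraries of unknown depth.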
